A study of Mus musculus with 6 samples.

Results

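Fibroblast growth factor 10 (Fgf10), its partner ligands Fgf7, Fgf9 and Fgf18, the 4 signalling receptors Fgfr1 to Fgfr4 and the receptor-like gene Fgfrl1 were examined in the developing soft palate of the mouse. These 9 genes were chosen by name and all 9 were found among the 49492 rows of the gene count table. RNA was sequenced from the soft palate at stage E14.5 in 3 control libraries, labelled wild type, and 3 libraries of the genotype Dlx5-/-, which lack the homeobox transcription factor Dlx5. The tissue was the posterior part of the palate. Strain, sex and litter are not given in the labels, and nothing in them ties each library to an embryo of its own. The p-values therefore measure only the spread between these samples, which may be technical.

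FGF ligands are secreted proteins that bind receptor tyrosine kinases on neighbouring cells together with heparan sulphate, and the bound receptors signal through the RAS and MAP kinase cascade. Fgf10 and Fgf7 are typically made by mesenchyme and act on the epithelial (IIIb) splice form of Fgfr2, while Fgf9 and Fgf18 prefer the mesenchymal (IIIc) splice forms of the receptors. In the palate, Fgf10 from the mesenchyme is known to act on the overlying epithelium. A count per gene does not tell the splice forms apart, and in a whole tissue fewer cells of a type cannot be told apart from less RNA per cell.

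Because Dlx5 is a homeodomain protein, and homeodomain proteins commonly bind sites with a TAAT core, the promoters of the related ligands Fgf10 and Fgf7 are shown here. Both are the 250 bases before the RefSeq start on the plus strand of GRCm38.p6, at chr13:118714449-118714698 for Fgf10 and chr2:126034408-126034657 for Fgf7. Capitals mark matches to TAATTA or TAATTG on either strand.
Fgf10: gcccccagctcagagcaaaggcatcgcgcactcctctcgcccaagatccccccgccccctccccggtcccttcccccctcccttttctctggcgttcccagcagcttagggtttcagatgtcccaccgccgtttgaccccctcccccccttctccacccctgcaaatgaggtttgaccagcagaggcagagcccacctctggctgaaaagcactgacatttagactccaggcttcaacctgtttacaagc
Fgf7: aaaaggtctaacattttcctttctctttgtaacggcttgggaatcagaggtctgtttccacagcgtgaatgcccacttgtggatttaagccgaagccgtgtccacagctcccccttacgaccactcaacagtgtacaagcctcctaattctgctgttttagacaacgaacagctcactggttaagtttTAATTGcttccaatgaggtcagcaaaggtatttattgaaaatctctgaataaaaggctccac
The Fgf7 match is TAATTG and begins at -62 from the start. The search covered the window from 250 bases before to 50 bases after the start, where the motifs share their first 5 letters and may overlap. The Fgf10 window held no match, which says only that these letters are not in it. RefSeq windows were matched for 8 of the 9 genes, with 9 windows in all because Fgfr3 has 2, and Fgfr1 was not matched. Either motif was present in 2 of the 9 windows, those of Fgf7 and Fgfr2, and in 12.4% of all 32851 windows of this length. Neither match is evidence of binding.

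The libraries held between 6891798 and 11922442 estimated counts. Dlx5 itself measured 26.1, 15.6 and 16.2 CPM (counts scaled to a common library size with TMM factors) in the controls and 0.827, 1.63 and 1.28 CPM in the knockouts. It was the only gene of 16218 that passed edgeR's quasi-likelihood test at an adjusted p under 0.05. That count depended on the setting: it was 0 to 164 with 1 library left out, 501 with DESeq2 and 679 without the filter on low values. Dlx5 itself missed the threshold in 5 fits (adjusted p from 0.0501 to 0.107): limma-voom, the replicate block, and edgeR with control replicate 3 or either of knockout replicates 1 and 2 omitted. Knockout replicate 3 had the lowest mean correlation with the other libraries (0.959, against 0.970 to 0.976). It carried some brain transcripts that the others had at low levels. The brain astrocyte gene Gfap, for example, was at 40.2 CPM there and at 0.486 to 2.36 CPM elsewhere. Of the 12 brain and neural progenitor markers, Sox1, Olig2 and Fabp7 were not highest in that library. Slc1a3 and Fabp7 were not low in the others, at 38.6 to 62.9 CPM and 55.8 to 114 CPM. All 12 palatal mesenchyme markers were detected in every library, with a summed level of 4854 to 8786 CPM, as were all 12 epithelial markers, at 248 to 392 CPM.

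All 9 genes passed the filter on low values (a mean of at least 1 CPM over the 6 libraries). None of the 9 passed the test at an adjusted p under 0.05, where 0.00617% of all genes did, and none passed with DESeq2, limma-trend or limma-voom. At an unadjusted p under 0.05, Fgf10, Fgf9 and Fgfrl1 had higher estimates in the knockout, which is 3 of 9, against 5.61% of all genes, and none had a lower one, against 7.23%. Of the 9 estimates, 8 were above 0 and 1, Fgf18, was below, and their median was 0.26 on the log2 scale. Over all genes, 52.5% of estimates were above 0 and the median was 0.01. The genes were chosen with earlier results known, so these shares describe them and do not test them.

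**Figure D1:**
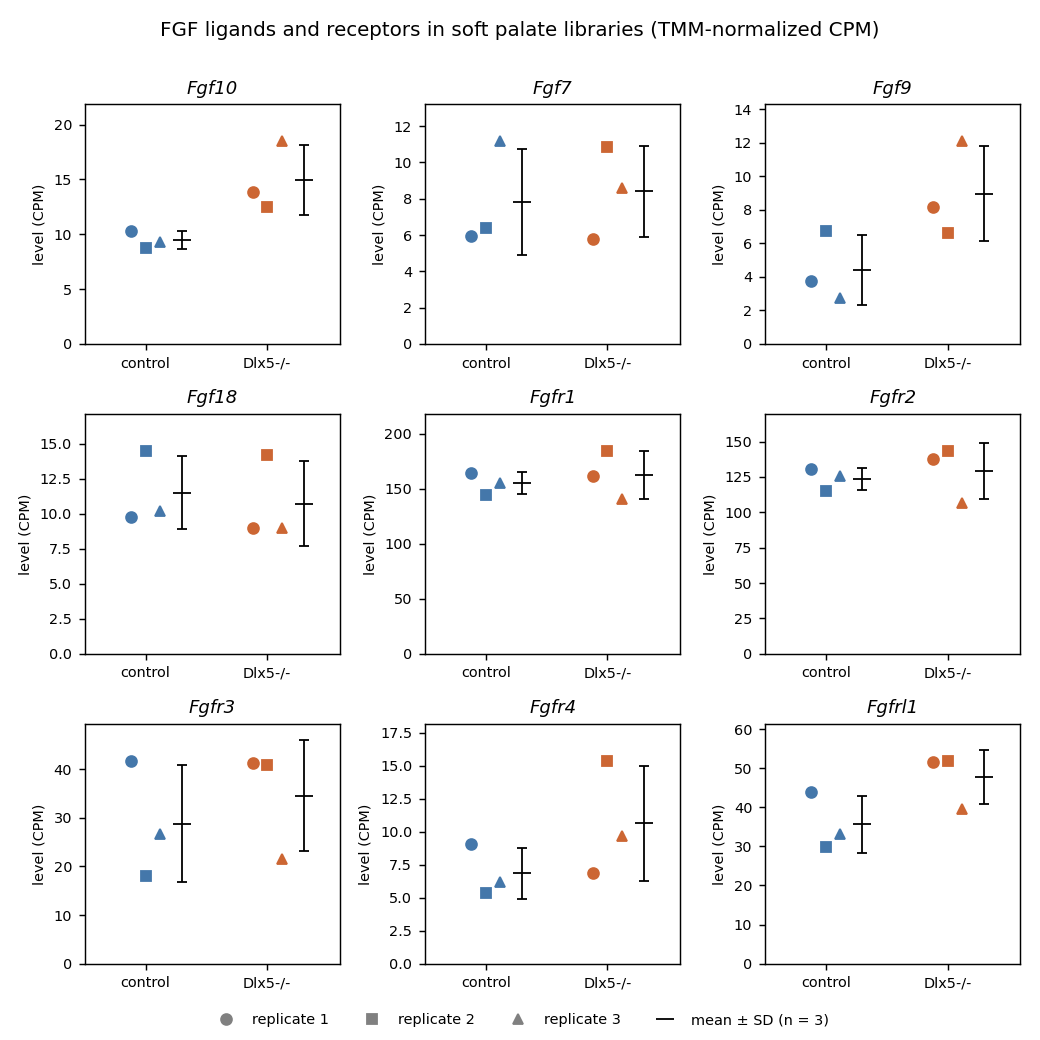
Level of each gene (CPM, y axis from 0) in 3 control and 3 Dlx5-/- libraries, with 1 point per library, shaped by replicate, and the mean ± SD beside the points. The Fgf10 points of the knockouts all lie above those of the controls, while the points of the other 8 genes overlap between groups.

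Among the ligands, Fgf10 was the only gene whose groups did not overlap. It measured 10.3, 8.74 and 9.32 CPM in control replicates 1, 2 and 3, from 96, 108 and 65 counts, and 13.8, 12.5 and 18.5 CPM in the knockouts, from 117, 115 and 246 counts. All 3 knockout values exceeded all 3 control values, and knockout replicate 3 was the highest. Complete separation in this direction occurred for 9.49% of all genes. Its log2 fold change of 0.66 (SE 0.19, 95% interval 0.23 to 1.10), a 1.58-fold higher level, did not pass (adjusted p = 0.186, edgeR). Without knockout replicate 3, where 1.01% of all genes passed, the estimate was 0.47 (adjusted p = 0.286, edgeR). Over all 17 alternatives it ran from 0.47 to 0.77, with adjusted p from 0.0985 to 0.514. Among the 12 mesenchyme markers 0 passed the test. At an unadjusted p under 0.05, 4 were higher (Prrx1, Pdgfra, Twist1 and Twist2), against 5.61% of all genes, and 0 lower, against 7.23%. Of the 12 estimates, 7 were above 0 and 5 below, with a median of 0.05 on the log2 scale. Of the markers named here, Pdgfra, Twist2, Osr2, Col1a1, Col1a2 and Postn were chosen after their values were seen. Prrx1, a mesenchymal homeobox gene, measured 195, 168 and 213 CPM in the controls and 274, 283 and 229 CPM in the knockouts (log2 fold change 0.45, adjusted p = 0.149, edgeR). Pdgfra, a growth factor receptor of mesenchyme, measured 303, 275 and 321 CPM against 344, 339 and 442 CPM (log2 fold change 0.32, adjusted p = 0.307, edgeR). Prrx1 and Pdgfra had fully separate groups, as 9.49% of all genes had in this direction. The related Prrx2 had a log2 fold change of -0.11 (adjusted p = 0.881, edgeR). Pdgfra, Twist1, Twist2 and Osr2 were highest in knockout replicate 3, as Fgf10 was, while Col1a1, Col1a2, Postn and Prrx2 were lowest there. The summed level of all 12, in which the collagen genes had the largest values, was lowest in that library. The part of mesenchyme in the Fgf10 values was not tested. Fgf10 lies on chromosome 13 from 118669791 to 118792115, plus strand (GRCm38, GENCODE M21, as for all gene positions here), and the RefSeq start used above, 118714699, is inside this span. The antisense gene Gm16263 shares 123 exon bases with it and had at most 2 counts in any library.

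Fgf7 (chromosome 2, 126034658 to 126091185, plus strand), which shares the receptor preference of Fgf10, showed no such separation. Its levels were 5.92, 6.39 and 11.2 CPM in the controls and 5.79, 10.8 and 8.58 CPM in the knockouts. The highest library was a control and the lowest a knockout, so the groups overlapped fully. The estimate for Fgf7 was a log2 fold change of 0.12 (SE 0.32, 95% interval -0.61 to 0.85; adjusted p = 0.922, edgeR), and the interval leaves room for a change as large as that estimated for Fgf10. The difference between the 2 genes was not tested. The sign of the Fgf7 estimate turned without control replicate 1 (-0.05), control replicate 2 (-0.01) or knockout replicate 2 (-0.11).

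Fgf9 (chromosome 14, 58070547 to 58112720, plus strand), which is made by epithelia and by neurons in many embryonic tissues, had the largest estimate of the 9 genes and the widest interval. It measured 3.77, 6.72 and 2.72 CPM in the controls and 8.15, 6.61 and 12.1 CPM in the knockouts, from as few as 19 counts in control replicate 3. Knockout replicate 2 lay just under control replicate 2, the only overlap between the groups. This gave a log2 fold change of 1.00 (SE 0.36, 95% interval 0.17 to 1.83; adjusted p = 0.294, edgeR). Knockout replicate 3, the highest in Fgf9, also had the highest sum over 12 brain and neural progenitor markers, 355 CPM against 111 to 179 CPM in the other 5 libraries. Of these markers, 0 to 2 were at 0 in any library. The order differed elsewhere: control replicate 3, lowest in Fgf9, had a sum of 169 CPM, and knockout replicate 2 had the lowest sum. The sum over 12 neuron markers was lowest in knockout replicate 3, at 1794 CPM. The sum over 12 epithelial markers was 306 CPM there and highest, at 392 CPM, in control replicate 3. The part of these cell types in the Fgf9 and Fgf10 values was not tested. Without knockout replicate 3 the Fgf9 estimate was 0.70 (adjusted p = 0.450, edgeR, in a range of 0.0907 to 0.605 over the alternatives).

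Fgf18 (chromosome 11, 33117430 to 33147400, minus strand), a ligand known from growing bone and cartilage, was the only one with an estimate below 0. Its levels were 9.80, 14.49 and 10.2 CPM in the controls and 8.98, 14.2 and 8.95 CPM in the knockouts. Replicate 2 was the highest library in each group, and the remaining 4 libraries lay close together. The log2 fold change was -0.11 (SE 0.25, 95% interval -0.68 to 0.46; adjusted p = 0.901, edgeR). Without control replicate 2 it was 0.10, and without knockout replicate 3 it was -0.00016.

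**Figure D2:**
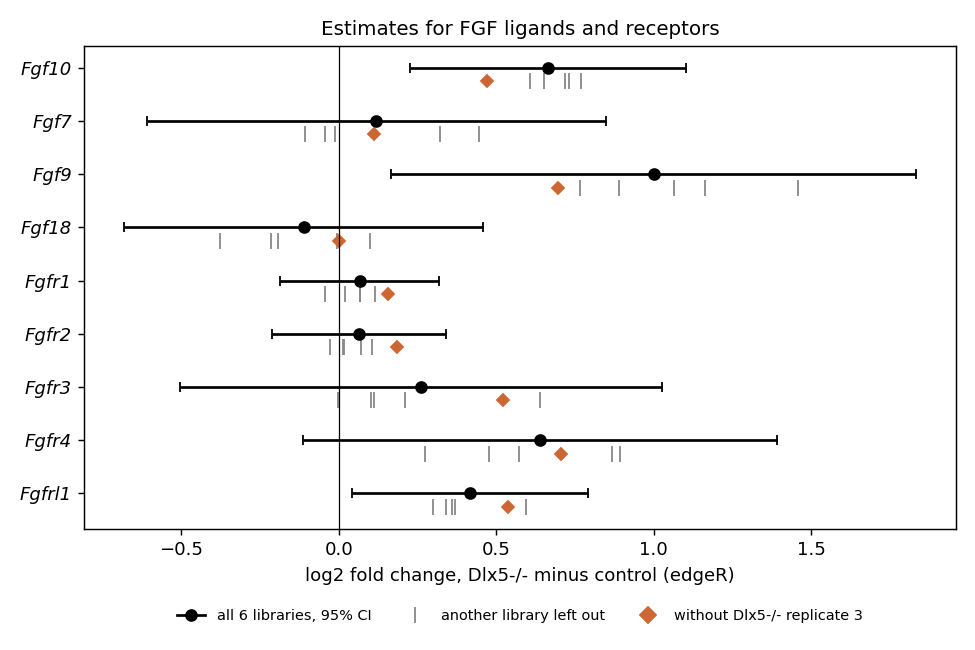
Log2 fold change of each gene (x axis, Dlx5-/- minus control, edgeR), with the 95% interval from all 6 libraries (black) and the estimates with 1 library left out (grey ticks, and an orange diamond for the fit without knockout replicate 3). The estimates of Fgf10, Fgf9, Fgfr4 and Fgfrl1 stay above 0 in each of these fits, and those of the other 5 genes reach or cross 0.

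The receptors Fgfr1 and Fgfr2 were the most abundant of the signalling receptors, and their estimates were the nearest to 0 of the 9 genes. Fgfr1 (chromosome 8, 25513654 to 25575718, plus strand), the main receptor of mesenchyme, measured 165, 145 and 156 CPM in the controls and 162, 185 and 141 CPM in the knockouts. The knockout values spanned the whole control range. Its log2 fold change was 0.07 (SE 0.11, 95% interval -0.19 to 0.32; adjusted p = 0.862, edgeR), which places the fold between 0.879 and 1.25. Fgfr2 (chromosome 7, minus strand), whose IIIb form receives Fgf10 and Fgf7, measured 130.5, 115 and 126 CPM in the controls and 138, 143 and 107 CPM in the knockouts. Here the log2 fold change was 0.06 (SE 0.12, 95% interval -0.21 to 0.34; adjusted p = 0.881, edgeR), a fold between 0.863 and 1.27. In both receptors knockout replicate 2 was the highest library and knockout replicate 3 the lowest. Without knockout replicate 2 the estimates turned to -0.05 for Fgfr1 and -0.03 for Fgfr2. Esrp1 and Esrp2, epithelial splicing factors that favour the IIIb form, had log2 fold changes of 0.19 (adjusted p = 0.760, edgeR) and -0.22 (adjusted p = 0.818, edgeR). Some counts of Fgfr1, Fgfr2, Fgfr3 and Fgfrl1 were fractional, while all 6 values of the other 5 genes were whole. The annotated span of Fgfr2, from 130162451 to 133123350, takes in many other genes, of which only Ctbp2, on the same strand, shares exon bases with it (314). Ctbp2 had 280 to 614 counts per library, the most in knockout replicate 3. The antisense gene Gm16159 shares 164 exon bases with Fgfr1 and had at most 3.74 counts in any library.

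Fgfr3 (chromosome 5, 33721674 to 33737068, plus strand), a receptor of cartilage, varied within each group more than between them. It measured 41.8, 18.0 and 26.7 CPM in the controls and 41.3, 41.0 and 21.4 CPM in the knockouts. Control replicate 1 and knockout replicates 1 and 2 were high, and the other 3 libraries low. These were also the 3 libraries with the highest sums over 11 chondrocyte markers, at 4966, 4940 and 6064 CPM, against 1987 to 2747 CPM in the other 3. All 11 markers were above 0 in every library, and their part in the Fgfr3 values was not tested. The cartilage collagen Col2a1 measured 2704, 1019 and 1410 CPM in the controls and 2511, 3388 and 1101 CPM in the knockouts. The log2 fold change of Fgfr3 was 0.26 (SE 0.33, 95% interval -0.51 to 1.03; adjusted p = 0.810, edgeR). It was -0.0011 without control replicate 2 and 0.64 without control replicate 1, so its size rested on single libraries. The transcript G630022F23Rik shares 998 exon bases with Fgfr3 on the opposite strand and had 5.13 to 12.5 counts.

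Fgfr4 (chromosome 13, 55152640 to 55168759, plus strand), a receptor known from developing skeletal muscle, was the least abundant of the 4. It measured 9.04, 5.34 and 6.16 CPM in the controls and 6.85, 15.4 and 9.71 CPM in the knockouts. Knockout replicate 1 lay inside the control range, and knockout replicate 2 stood highest. For Fgfr4 the log2 fold change was 0.64 (SE 0.33, 95% interval -0.12 to 1.39; adjusted p = 0.466, edgeR), and without knockout replicate 2 it was 0.27. The sum over 12 skeletal muscle markers was 887, 1260 and 767 CPM in the controls and 974, 2686 and 1720 CPM in the knockouts. It was highest in the same 2 libraries as Fgfr4, knockout replicates 2 and 3 in that order. The order differed among the controls, where replicate 2 had the highest marker sum but the lowest Fgfr4 level. Among these markers, Myod1, a master regulator of muscle, measured 9.60 to 14.1 CPM in the controls and 15.7 to 26.3 CPM in the knockouts. All 12 were above 0 in every library, and their part in the Fgfr4 values was not tested.

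**Figure D3:**
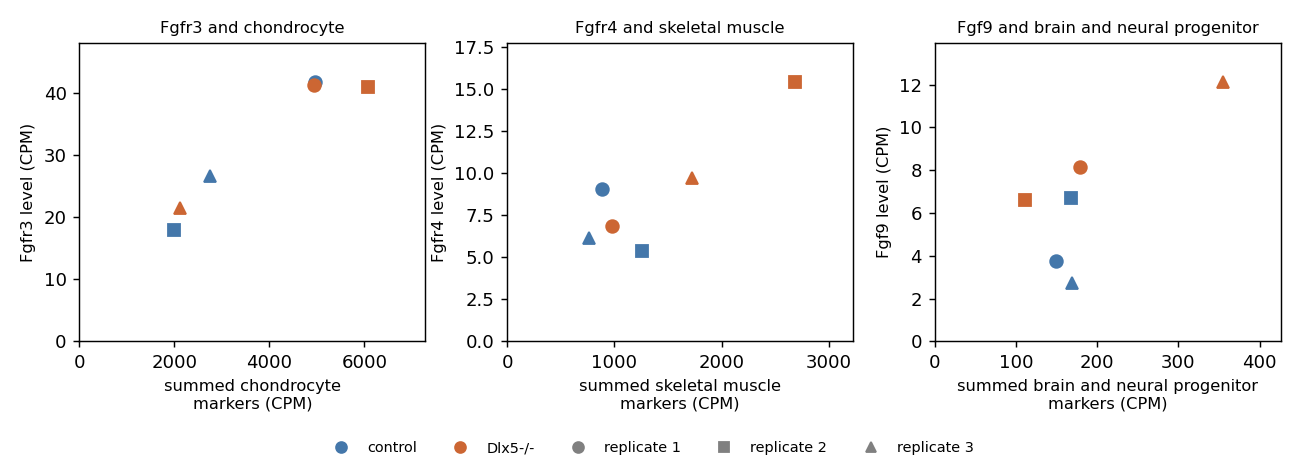
Levels of Fgfr3, Fgfr4 and Fgf9 (CPM, y axes from 0) against the summed level of chondrocyte, skeletal muscle and brain markers (CPM, x axes from 0), with 1 point per library, coloured by group and shaped by replicate. The 3 libraries at or above 4940 CPM of chondrocyte markers are the 3 with Fgfr3 at 41.0 to 41.8 CPM, and knockout replicate 2 is highest in both measures of the middle panel.

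Fgfrl1 (chromosome 5, 108692382 to 108706924, plus strand), which binds FGF ligands but lacks the kinase domain, measured 43.8, 29.9 and 33.3 CPM in the controls and 51.5, 51.9 and 39.6 CPM in the knockouts. Knockout replicates 1 and 2 lay above all controls, and knockout replicate 3 lay under control replicate 1. The Fgfrl1 estimate was 0.42 on the log2 scale (SE 0.16, 95% interval 0.04 to 0.79; adjusted p = 0.330, edgeR). Without knockout replicate 3 the estimate was 0.54 (adjusted p = 0.151, edgeR, in a range of 0.107 to 0.680 over the alternatives).

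To set the genes side by side, levels were divided by the length of all annotated exons of each gene. In the controls Fgfr1 was highest, at 15.7 ± 1.01 CPM per kilobase of exon (SD, n = 3), followed by Fgfrl1 at 12.8 ± 2.61, Fgfr2 at 11.97 ± 0.777 and Fgf18 at 9.68 ± 2.20. Each neighbouring pair among these 4 overlapped between libraries. Then came Fgfr3 at 4.02 ± 1.68, Fgf7 at 2.41 ± 0.896, Fgf10 at 2.06 ± 0.175 and Fgfr4 at 1.93 ± 0.549 CPM per kilobase, again with overlapping neighbours, and Fgf9 was lowest at 0.947 ± 0.446. The steps from Fgf18 to Fgfr3 and from Fgfr4 to Fgf9 were the only ones without overlap. In the knockouts Fgfrl1 (17.1 ± 2.50) and Fgfr1 (16.5 ± 2.21) were highest and overlapped. There the mean of Fgf10 was 3.25 ± 0.689 CPM per kilobase, above Fgf7 at 2.59 ± 0.779, with Fgfr4 at 3.01 ± 1.23 between them. These neighbours overlapped between libraries, and in knockout replicate 2 Fgf7 (3.34) stood above Fgf10 (2.71). The order depends on the length used. Per kilobase of the longest coding sequence, the mean of Fgf10 in the controls (15.1 ± 1.29) stood above Fgf7 (13.5 ± 4.999) and Fgfr3 (11.97 ± 5.01), with overlapping neighbours. Fgfr4 was lowest by that length (2.86 ± 0.811).

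As shares of the summed level of the 4 receptors per kilobase of exon, Fgfr1 made up 46.9% ± 2.49 in the controls and 44.9% ± 1.88 in the knockouts (SD, n = 3 each). Fgfr2 made up 35.7% ± 1.99 and 34.1% ± 1.53. Control shares of Fgfr3 were 15.5%, 8.43% and 11.2%, and its knockout shares were 15.4%, 13.4% and 9.88%. Control shares of Fgfr4 were 6.77%, 5.06% and 5.21%, against 5.16%, 10.2% and 9.03% for the knockouts. With coding lengths in place of exon lengths the mean Fgfr4 share was 2.24% instead of 5.68% in the controls and 3.28% instead of 8.13% in the knockouts. By exon length, knockout replicates 2 and 3 were above all controls and knockout replicate 1 was not. Fgfr1 and Fgfr2 kept the first and second place in each of the 6 libraries.

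**Figure D4:**
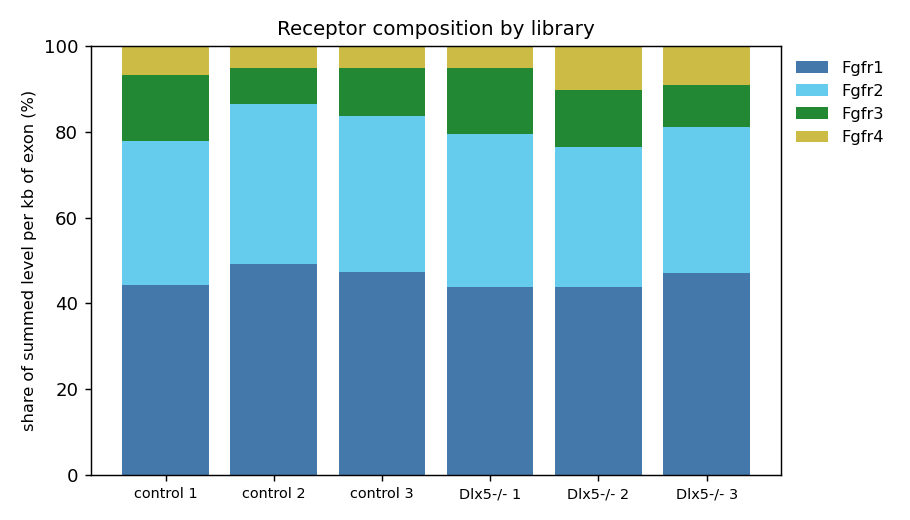
Share of each receptor (stacked bars, percent, y axis from 0 to 100) in the summed level of Fgfr1 to Fgfr4 per kilobase of exon, with 1 bar per library. Fgfr1 takes 43.8% to 49.2% and Fgfr2 32.6% to 37.3% in every library, and the Fgfr4 share is largest in knockout replicates 2 and 3.

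Of 18 other FGF ligands, 8 passed the filter on low values. None passed the test (2 were lower and 0 higher at an unadjusted p under 0.05, against 7.23% and 5.61% of all genes), 6 estimates were below 0 and 2 above, and the median log2 fold change was -0.31, against 0.01 over all genes. The lower estimates included Fgf13 and Fgf11, which are intracellular FGF homologues found chiefly in neurons and are not secreted. Fgf13 measured 104 ± 21.1 CPM in controls against 57.9 ± 16.7 CPM in knockouts (SD, n = 3; log2 fold change -0.85, adjusted p = 0.145, edgeR). Fgf11 measured 16.9 ± 1.30 and 12.4 ± 1.42 CPM (log2 fold change -0.44, adjusted p = 0.244, edgeR). Both had fully separate groups, as 9.7% of all genes had in this direction. The sum over 12 neuron markers, all detected, was 3710 to 4700 CPM in the controls and 1794 to 2501 CPM in the knockouts, and its part in these values was not tested. Fgf13 passed with DESeq2 (adjusted p = 0.00286), where 3.09% of all genes did, and with edgeR without the filter (0.00104), where 2.27% did, in a range of 0.00104 to 0.456 over the alternatives. No other gene of this list passed under any of the 17 alternatives. The filter removed 10 ligands, among them Fgf8, an epithelial ligand of the early arches, with 8 counts over all controls and 6 over all knockouts.

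Among 27 genes of co-receptors and heparan sulphate, 25 passed the filter and 0 the test (1 was higher and 4 lower at an unadjusted p under 0.05, against 5.61% and 7.23% of all genes), 14 estimates were above 0 and 11 below, and the median was 0.02. Sulf1, which removes sulphate groups from heparan sulphate outside the cell, measured 143 ± 16.3 CPM in controls against 183 ± 7.90 CPM in knockouts (SD, n = 3; log2 fold change 0.36, adjusted p = 0.162, edgeR). Hs6st1 and Hs6st3, which add sulphate groups to heparan sulphate, had log2 fold changes of -0.30 (adjusted p = 0.181, edgeR) and -0.92 (adjusted p = 0.225, edgeR). The membrane protein Flrt1 had one of -0.55 (adjusted p = 0.257, edgeR). Sulf1 passed with DESeq2 (adjusted p = 0.0373) and with edgeR without the filter (0.0493), in a range of 0.0373 to 0.456 over the alternatives. Flrt1 passed with edgeR without the filter (adjusted p = 0.0428, in a range of 0.0428 to 0.609 over the alternatives), and no other gene of this list passed under any of them.

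All 21 signal transducers passed the filter, with a median of 0.0034 and 0 past the test (0 were higher and 2 lower at an unadjusted p under 0.05, where 7.23% of all genes were lower). The smallest p-values were those of the kinase Mapk3 (log2 fold change -0.37, adjusted p = 0.320, edgeR) and of Hras (-0.23, adjusted p = 0.330, edgeR). Of the feedback and response genes, 17 of 18 were in the table and passed the filter, with 10 estimates above 0, 7 below, a median of 0.02 and 0 past the test (2 were higher and 1 lower at an unadjusted p under 0.05, against 5.61% and 7.23% of all genes). Il17rd, an inhibitor induced by FGF signals, measured 29.6 ± 2.75 CPM in controls against 40.8 ± 7.01 CPM in knockouts (log2 fold change 0.47, adjusted p = 0.190, edgeR). Its groups were fully separate, as were those of 9.49% of all genes in this direction. Etv5, a transcription factor that FGF signals induce, had a log2 fold change of 0.28 (adjusted p = 0.343, edgeR), and Dusp4, a phosphatase of MAP kinases, one of -0.36 (adjusted p = 0.351, edgeR). Spred3, an inhibitor of the same cascade, had one of -0.35 (adjusted p = 0.394, edgeR). Il17rd passed with edgeR without the filter (adjusted p = 0.0418, in a range of 0.0418 to 0.535 over the alternatives). No other response gene and no transducer passed under any of the 17 alternatives.

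**Figure D5:**
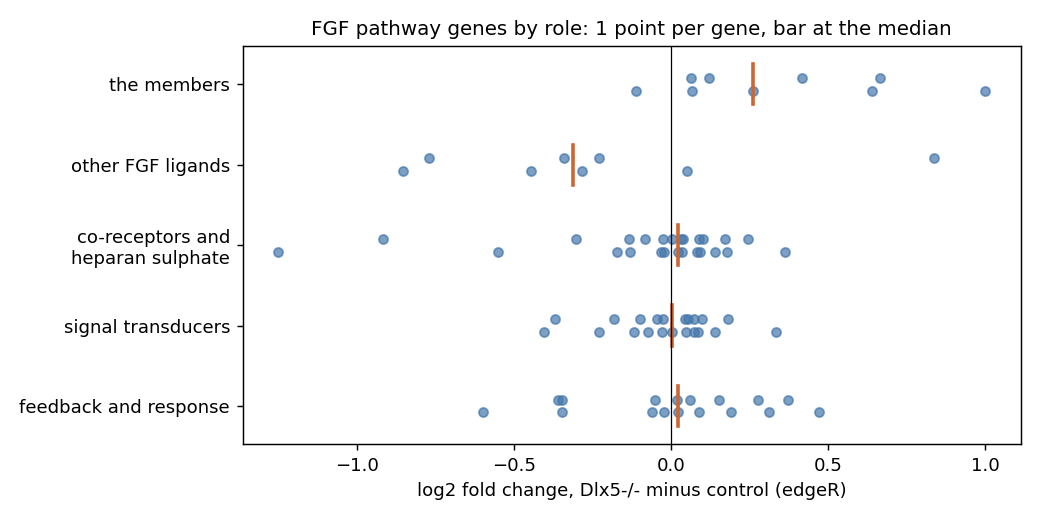
Log2 fold change (x axis, Dlx5-/- minus control, edgeR) of the 9 genes and of 4 lists of other FGF pathway genes, with 1 point per gene that passed the filter and an orange bar at each median. The medians of co-receptors, transducers and response genes lie at 0.0034 to 0.02, that of the 9 genes at 0.26 and that of the other ligands at -0.31.

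The 5 genes whose pattern over the 6 libraries was most like that of Fgf10 were Jade3, Tmem132c, Tardbp, Tcf24 and Irx1, with Pearson correlations of 0.998 to 0.989 on log2(CPM + 1). Among 11582 genes compared, 295 had a correlation above 0.9, and with 6 libraries these values are a description. Irx1, a homeobox gene, measured 8.61, 5.18 and 7.02 CPM in the controls and 22.2, 16.3 and 35.7 CPM in the knockouts. In each of the 5 genes, as in Fgf10, knockout replicate 3 was highest and control replicate 2 lowest. This shared order follows from choosing the 5 genes by likeness to Fgf10 over the same 6 libraries. Their test results below therefore say nothing further about Fgf10. None of them passed the test as reported here, where Irx1 had the smallest adjusted p (0.0591, edgeR), but 3 of the 5 passed under other settings. Irx1, Tmem132c and Tcf24 passed with DESeq2 (adjusted p = 1.89e-06, 0.00103 and 0.00966) and with edgeR without the filter. Irx1 also passed with limma-trend (adjusted p = 0.0475 at a pseudocount of 1), where 0.598% of all genes did, and with edgeR without knockout replicate 3 (0.0341). Over the alternatives the adjusted p ran from 1.89e-06 to 0.294 for Irx1, from 0.000294 to 0.434 for Tmem132c and from 0.00510 to 0.411 for Tcf24. Of the other 8 FGF genes, Fgf9 was the most like Fgf10 (0.788) and Fgf18 the least (-0.51).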

How the data were processed

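Polyadenylated RNA of soft palate was sequenced from 3 control and 3 Dlx5-/- libraries at stage E14.5, prepared with an mRNA library kit per the labels' protocols. The deposited table holds estimated counts. STAR 2.4.1d, Partek and the build mm10 are named in the submitters' processing notes, while the gene annotation, how reads were counted and whether strand was used are not given in sources used here. The table is called normalized, but its column totals differ. Of the values above 0.5, 64.5% were whole within 0.001. There was 1 more column, named as wild type, which fitted no labelled sample and was left out.

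Counts were rounded, genes with a mean of at least 1 CPM were kept (16218), and edgeR 4.0.16 (R 4.3.3) was run on all of them with TMM factors and Benjamini-Hochberg adjustment at 0.05. SEs derive from its F statistic. Alternatives used limma 3.58.1, DESeq2 1.42.0, other factors, filters and thresholds, and each library left out. The script was tested on simulated data. Exon and coding lengths and coordinates are from GENCODE M21 (GRCm38), promoters from RefSeq (GRCm38.p6). Besides the 9 genes and Dlx5, up to 4 genes with the smallest p were named per pathway list, up to 3 markers per marker list, and the 5 genes most like Fgf10 among genes averaging 5 CPM or more, leaving out predicted genes. Col2a1, Esrp2, Fgf8, Pdgfra, Twist2, Osr2, Col1a1, Col1a2, Postn, Sox1, Olig2, Fabp7 and Slc1a3 were added after their values were seen. The genes and lists were chosen with earlier results of these data known. Protein sequences were not used here.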

Additional observations from a re-analysis of the deposited data

How the results depend on the processing

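None of the 9 FGF genes passed under any of 17 alternatives, and the estimates of Fgf10, Fgf9, Fgfr4 and Fgfrl1 kept their direction in all of them. With 1 library left out the log2 fold change ran from 0.47 to 0.77 for Fgf10, -0.11 to 0.44 for Fgf7, 0.70 to 1.46 for Fgf9, -0.38 to 0.10 for Fgf18, -0.045 to 0.16 for Fgfr1, -0.029 to 0.18 for Fgfr2, -0.0011 to 0.64 for Fgfr3, 0.27 to 0.89 for Fgfr4 and 0.30 to 0.60 for Fgfrl1. The number of these genes with an unadjusted p under 0.05 was 3, and 1 to 3 with a library left out (1, Fgf10, without control replicate 3). The number with separate groups was 1, Fgf10, where 9.49% of all genes were separate and higher in the knockout and 9.7% lower. With library totals alone it was 2, as Fgfrl1 joined Fgf10, but the share of all genes was not computed there. Leaving out 1 library makes separation easier, so those counts are not given. The count over all genes, 1 as reported, was 25 with upper-quartile factors, 41 with library totals alone, 679 without a filter, 74 with a filter at 5 CPM, 501 with DESeq2, 97 and 96 with limma-trend at pseudocounts of 1 and 0.5, 0 with limma-voom, 299 at a threshold of 0.1, and 0 to 164 with a library left out (164 without knockout replicate 3). The cause was not tested. With the replicate number as a block 0 genes passed, and Fgf10 had a log2 fold change of 0.64 (adjusted p = 0.273, edgeR). Deviations of same-numbered libraries from their group means had correlations of -0.01, -0.01 and 0.02, and no library correlated best with its own number. With 3 libraries per group and the group means removed, these values cannot exclude a pairing, which the labels do not give. Dlx5 ran from -4.15 to -3.16 and its adjusted p from 1.78e-22 to 0.107. It did not pass with limma-voom or the block, nor when knockout replicate 1, knockout replicate 2 or control replicate 3 was left out. Fgf6, another ligand, turned from 0.84 to -0.15 without knockout replicate 2 and reached 1.23 without knockout replicate 3. The median of signal transducers was -0.012 with library totals alone, 0.021 with a filter at 5 CPM, and -0.0063 to 0.049 with a library left out. With coding lengths, an alternative chosen after seeing the data in place of RefSeq protein lengths, which were not run, the shares of Fgfr1, Fgfr2 and Fgfr4 were 49.4%, 39.1% and 2.24% in controls and 48.3%, 38.0% and 3.28% in knockouts. Counts of 19 to 246 per library limit the precision for the 4 ligands and Fgfr4.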
